A study of Homo sapiens with 12 samples.

Results

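The 35 genes described here were 33 established targets of the transcription factor p53 and the genes of its family members p63 and p73. They were chosen by name, with no threshold on measured values, but with earlier results of these data known. They were found by Ensembl gene identifier among the 60617 identifiers of the count and TPM tables. All 35 were among the 21581 genes that passed the filter on low counts. They were measured by RNA sequencing in A549, an established human lung adenocarcinoma line that is commonly used as a p53 wild-type model and that is known to have lost CDKN2A. The groups were 4 libraries of cells given the siRNA combination against YAP and TAZ labelled Y1T2 (siYAP/TAZ#1), 4 of cells given the combination labelled Y2T3 (siYAP/TAZ#2), and 4 of cells given the non-targeting control labelled NTC (siCo). RNA was taken 24 hours after transfection in every group. The series calls the 4 libraries of a group biological replicates, and no label ties them to separate culture days, so the p-values measure the spread between these libraries.

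p53 is held low in unstressed cells by the ubiquitin ligase MDM2 and its partner MDM4, and DNA damage and other stress release it. It then binds response elements in its target genes and raises genes of cell cycle arrest, DNA repair, cell death and metabolism, MDM2 among them, which closes a feedback loop. YAP and TAZ are coactivators controlled by the Hippo pathway, which act on growth genes through TEAD factors bound to DNA. The study asked which transcripts depend on YAP and TAZ, and the comparisons below ask how the p53 targets stood when both coactivators were depleted.

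Promoter sequence was at hand for 28 of the 35 genes, in RefSeq's table for GRCh38.p14, as the window from 250 bases before to 50 bases after an annotated start. Only the first window listed for a gene was used, and any other starts of that gene were not searched. The shares over all windows cover every window in the table. GADD45A, RRM2B, ASCC3, TP53INP1, PHLDA3, CMBL and FBXO22 had no entry. Each window was searched on both strands for the p53 consensus decamer and for the TEAD core GGAATG. The decamer was in 4 of the 28 windows (14.3%), those of PLK2, AEN, RPS27L and FDXR, against 6.63% of all 35116 windows in the table. The p53 core was in 1 of the 28, that of TRIAP1, against 0.373% of all windows. The TEAD core was in 5 of the 28 (17.9%), those of PLK3, TP53I3, SPATA18, GDF15 and ZNF79, against 14.0% of all windows. A match describes these letters in this window only, and most p53 response elements are known to lie outside so short a window. The windows below are some of those of genes whose levels changed, with each match in capitals, written 5′ to 3′ along the gene's strand. That of TP53I3, which rose with siYAP/TAZ#2 and whose window holds the TEAD core, is not printed. PLK2 and AEN fell with both combinations and FDXR rose with siYAP/TAZ#2, and these windows hold a decamer. PLK3 fell and SPATA18 rose with both combinations, and their windows hold the TEAD core, which stands at 2 places in that of SPATA18.
PLK2 (chr5:58460037-58460336, minus strand): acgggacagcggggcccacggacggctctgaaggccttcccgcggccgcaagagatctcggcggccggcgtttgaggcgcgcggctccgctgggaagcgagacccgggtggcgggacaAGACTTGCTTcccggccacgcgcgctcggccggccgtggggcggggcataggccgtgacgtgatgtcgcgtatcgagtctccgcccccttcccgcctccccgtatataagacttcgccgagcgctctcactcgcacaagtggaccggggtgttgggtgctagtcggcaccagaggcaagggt
AEN (chr15:88621090-88621389, plus strand): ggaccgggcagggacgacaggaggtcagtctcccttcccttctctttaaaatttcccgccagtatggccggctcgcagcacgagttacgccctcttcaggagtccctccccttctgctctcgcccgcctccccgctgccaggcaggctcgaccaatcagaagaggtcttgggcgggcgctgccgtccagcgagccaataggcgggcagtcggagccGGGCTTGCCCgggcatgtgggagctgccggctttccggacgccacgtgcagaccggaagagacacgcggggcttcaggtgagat
FDXR (chr17:74872945-74873244, minus strand): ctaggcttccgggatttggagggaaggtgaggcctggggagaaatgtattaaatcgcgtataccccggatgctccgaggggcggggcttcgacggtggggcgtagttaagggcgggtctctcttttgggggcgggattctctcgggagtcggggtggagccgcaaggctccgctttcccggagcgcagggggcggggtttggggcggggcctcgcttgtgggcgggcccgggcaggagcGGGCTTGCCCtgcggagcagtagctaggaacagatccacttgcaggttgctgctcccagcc
PLK3 (chr1:44800127-44800426, plus strand): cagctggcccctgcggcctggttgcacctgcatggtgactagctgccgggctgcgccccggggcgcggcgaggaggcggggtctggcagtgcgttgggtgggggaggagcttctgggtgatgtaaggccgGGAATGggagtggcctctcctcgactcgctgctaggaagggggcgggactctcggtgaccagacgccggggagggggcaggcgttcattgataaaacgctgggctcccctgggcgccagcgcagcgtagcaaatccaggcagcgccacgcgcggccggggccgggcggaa
SPATA18 (chr4:52051054-52051353, plus strand): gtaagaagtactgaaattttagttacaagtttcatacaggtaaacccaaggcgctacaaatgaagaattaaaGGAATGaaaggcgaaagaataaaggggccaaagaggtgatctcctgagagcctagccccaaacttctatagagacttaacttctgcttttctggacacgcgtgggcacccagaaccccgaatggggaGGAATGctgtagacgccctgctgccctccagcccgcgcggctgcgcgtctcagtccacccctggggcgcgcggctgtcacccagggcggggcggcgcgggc

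Library totals ran from 29.6 to 38.3 estimated counts in units of 1e6, and a count of 10 stood for 0.25 to 0.375 CPM (counts per 1e6 counts). CPM values here are scaled by TMM, which gives each library a scaling factor on the assumption that most genes do not differ between libraries. YAP1 was at 18.7 ± 1.43 CPM with siYAP/TAZ#1, 17.4 ± 1.19 CPM with siYAP/TAZ#2 and 121 ± 4.03 CPM in siCo cells, and WWTR1, the gene of TAZ, at 32.9 ± 1.14 CPM with siYAP/TAZ#1, 32.4 ± 2.38 CPM with siYAP/TAZ#2 and 241 ± 9.71 CPM in siCo cells (SD, n = 4), so the treated libraries matched their labels. The A549 markers KRT8, AKR1B10, ALDH1A1 and ALDH3A1 were abundant in siCo cells, from 1253 ± 47.5 CPM for AKR1B10 to 2383 ± 135 CPM for KRT8, while CDKN2A, SFTPC and ALB were too low to test. KRT19 and CDH1, both epithelial genes, rose with both combinations, and the collagen gene COL1A1 rose with siYAP/TAZ#1, to 153 ± 12.9 CPM, against 109.9 ± 5.68 CPM in siCo cells. In such bulk RNA, fewer cells of a kind and less RNA per cell cannot be told apart, and the part of these markers in the changes below was not tested. Replicate 1 of siYAP/TAZ#2 stood apart from the other 3 of its group for several of the genes. It held 5.21% of its counts in the non-coding gene MIR663AHG, against 2.45% to 3.47% in the other 3. That share lay within the range of the siCo libraries, 3.83% to 5.56%. Leaving out replicate 1 of siYAP/TAZ#2, an alternative made for every library, took away no call among the 35 genes, and its effect is given beside the counts.

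The p53 targets did not move as a block: some rose, others fell, and their largest changes with both combinations were a rise of CCNG1 and a fall of PLK2. The p53 family genes TP63 and TP73 rose more, from low mean levels of 0.275 TPM for TP63 and 0.0683 TPM for TP73 in siCo cells. With siYAP/TAZ#1, 10 of the 35 genes rose and 7 fell against siCo at an adjusted p under 0.05 in edgeR's quasi-likelihood test. The 17 called make 48.6%, against 34.9% of all genes tested (16.4% higher and 18.5% lower) and 51.5% of coding genes with at least 5 CPM in a group. With siYAP/TAZ#2, 15 rose and 10 fell. These 25 make 71.4%, against 38.2% of all genes (19.0% higher and 19.2% lower) and 54.9% of such coding genes. Both comparisons use the same siCo libraries, so their counts are not independent. The 35 genes were chosen with earlier results of these data known, so the shares here describe the list and test nothing. In the same direction with both combinations, 9 rose and 6 fell, or 42.9% of the 35, against 25.8% of all genes and 38.4% of such coding genes. None was called in opposite directions by edgeR or DESeq2, against 0.69% of all genes by edgeR. The libraries of siYAP/TAZ#1 and siCo did not overlap for 57.1% of the 35 genes, against 38.7% of all genes and 57.6% of such coding genes. Those of siYAP/TAZ#2 and siCo did not overlap for 68.6%, against 34.6% of all genes and 49.4% of such coding genes. The median log2 change of the 35 genes was 0.04 with siYAP/TAZ#1 and 0.11 with siYAP/TAZ#2, and over all genes it was 0.02 with either. Over such coding genes it was -0.08 with siYAP/TAZ#1 and -0.07 with siYAP/TAZ#2. The median size of the log2 change was 0.17 with siYAP/TAZ#1 and 0.33 with siYAP/TAZ#2, and over all genes it was 0.28 with siYAP/TAZ#1 and 0.29 with siYAP/TAZ#2.

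The split between higher and lower depended on scaling. With library size alone in place of TMM, which moved the median log2 change of all genes to 0.20 with siYAP/TAZ#1 and 0.21 with siYAP/TAZ#2, 16 of the 35 rose and 4 fell with siYAP/TAZ#1. With siYAP/TAZ#2, 19 rose and 3 fell on that scale. Over all genes, 75.5% of the calls with siYAP/TAZ#1 were then higher, against 46.9% under TMM, and 76.2% with siYAP/TAZ#2, against 49.7%. On the deposited TPM with no further scaling, log2(TPM + 1) tested with limma gave 4 higher and 0 lower with siYAP/TAZ#1, and 11 higher and 0 lower with siYAP/TAZ#2. At an unadjusted p under 0.05, 1 of them was lower on that scale with either combination, PLK2. With library size alone, CMBL, FDXR, GDF15, PPM1D, SUSD6 and TP53I3 joined the genes that rose with siYAP/TAZ#1, and FBXO22, GDF15, SESN1 and ZNF79 those with siYAP/TAZ#2. The falls of GADD45A, MDM4 and PLK3 with both combinations, and of PPM1D, RRM2B, SUSD6 and TIGAR with siYAP/TAZ#2, were then not called. All later directions and calls are those under TMM unless another scaling is named. Leaving out replicate 1 of siYAP/TAZ#2 gave 11 higher and 11 lower with siYAP/TAZ#1 and 16 higher and 11 lower with siYAP/TAZ#2. It added a rise of CMBL and falls of PHLDA3, SESN1, TIGAR and ZMAT3 with siYAP/TAZ#1, and a rise of FBXO22 and a fall of PHLDA3 with siYAP/TAZ#2.

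**Figure D1:**
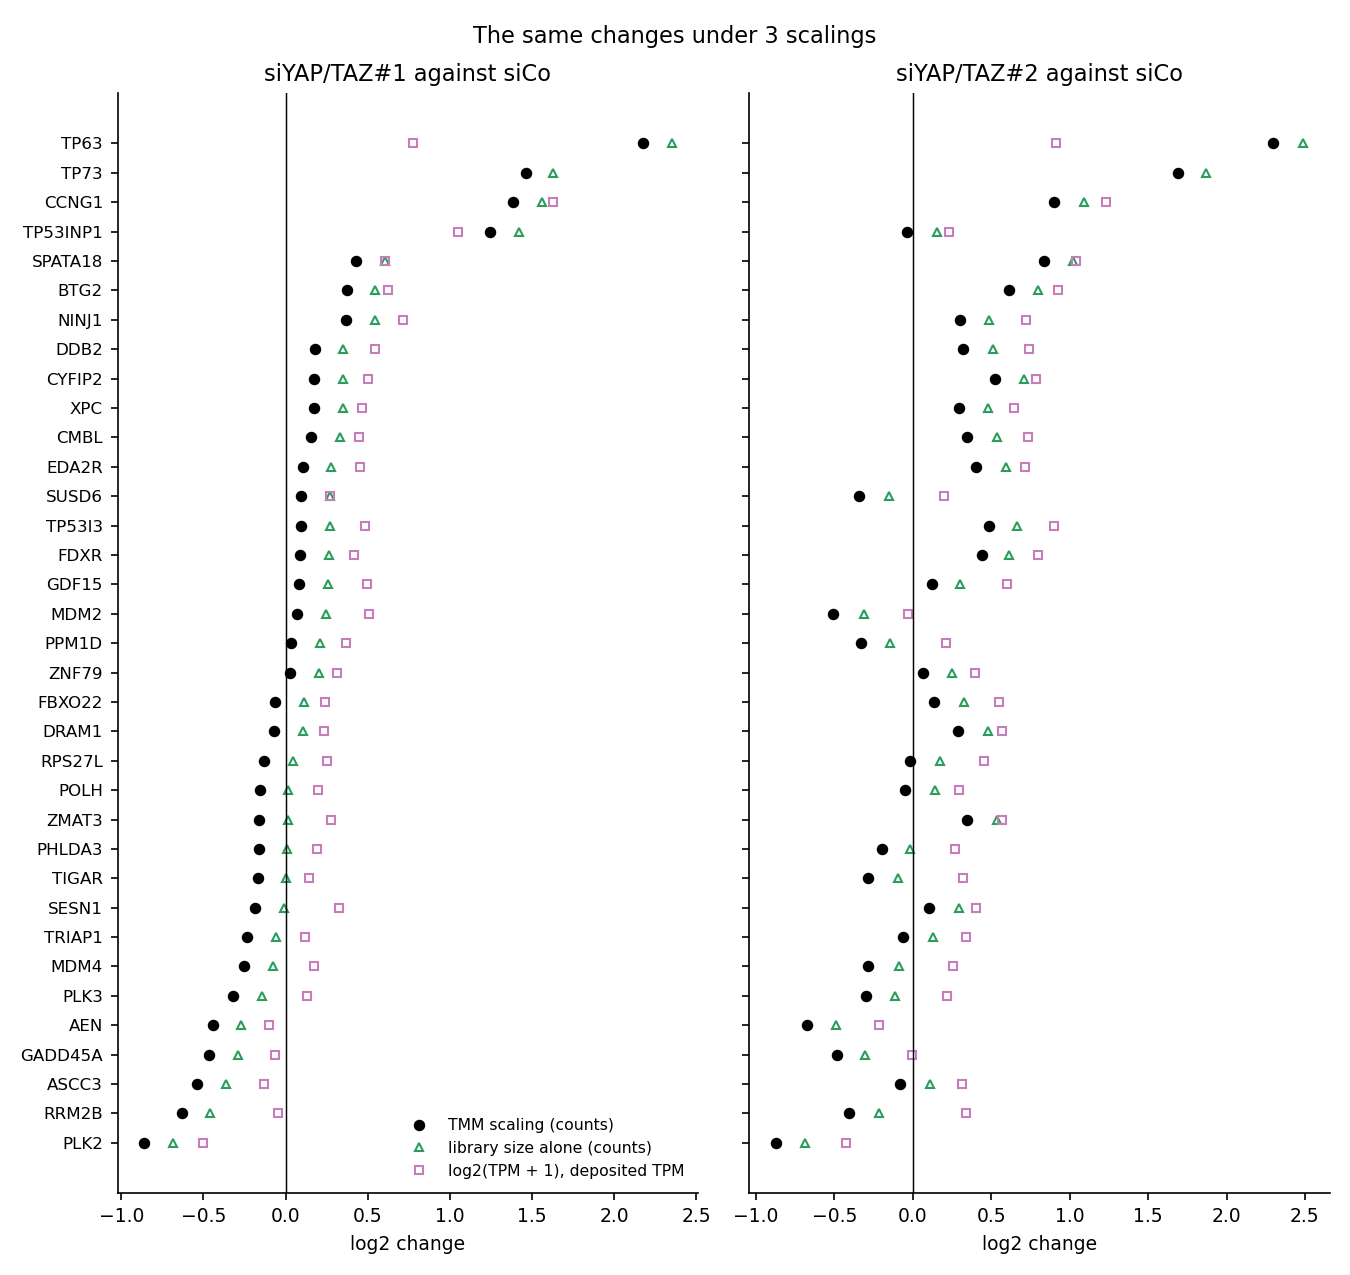
log2 change against siCo (horizontal axis) of each gene under TMM scaling, library size alone and deposited TPM with no further scaling, for siYAP/TAZ#1 (left) and siYAP/TAZ#2 (right), with no TPM point for TP73, which was under the TPM filter. Points of the other scalings lie to the right of the TMM points for most genes, TP63 and CCNG1 lie to the right of 0 and PLK2 to the left of it under all 3, and MDM4 and PLK3 change sides.

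**Figure D2:**
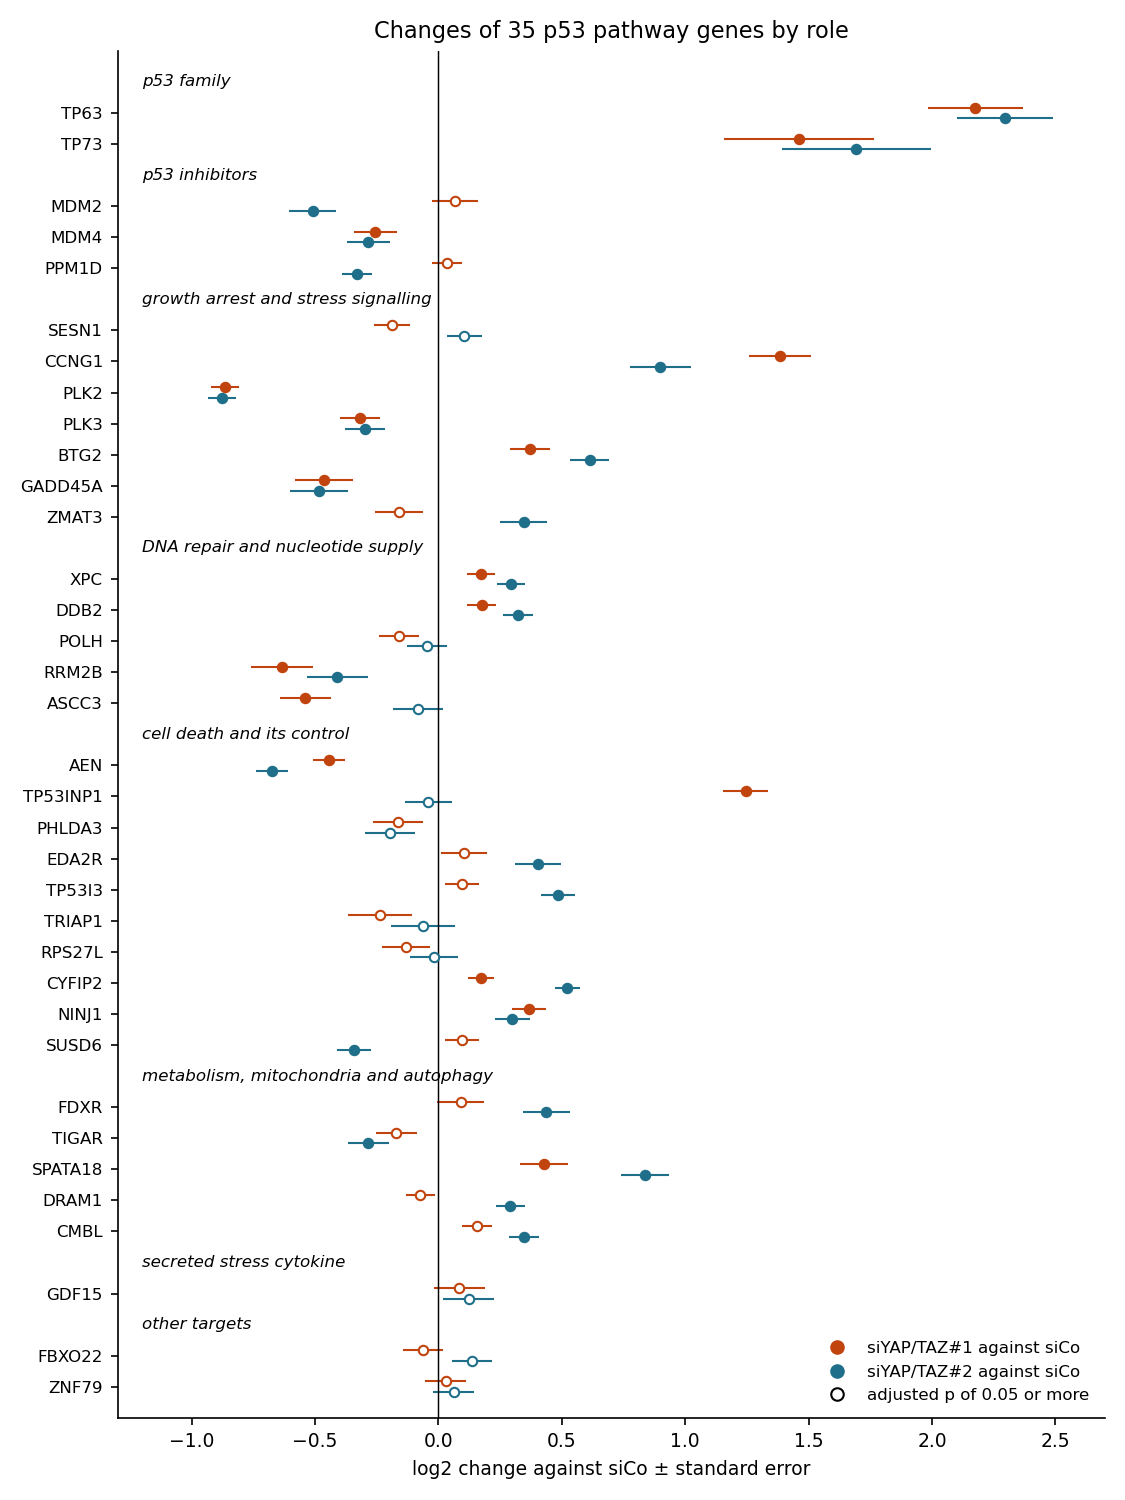
log2 change of each of the 35 genes against siCo (horizontal axis) with its standard error, for siYAP/TAZ#1 and siYAP/TAZ#2, grouped by role, with filled points where the adjusted p was under 0.05 and open points elsewhere. TP63, TP73, CCNG1 and, with siYAP/TAZ#1, TP53INP1 lie farthest to the right, and PLK2 lies farthest to the left with both combinations. The other points lie between these on both sides of 0, from AEN at -0.67 to SPATA18 at 0.84, both with siYAP/TAZ#2.

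Both p53 family genes rose with both combinations. TP63, at chr3:189631416-189897279 (gene positions are given on GRCh38 as GENCODE v29 annotates them), encodes p63, the factor that maintains basal cells of stratified epithelia. It stood at 3.83, 3.86, 3.20 and 3.68 CPM with siYAP/TAZ#1, 3.44, 3.46, 4.38 and 4.54 CPM with siYAP/TAZ#2, and 0.551, 0.862, 1.16 and 0.683 CPM in siCo cells. All 8 treated libraries lay above all 4 siCo libraries, and the fitted log2 change was 2.18 ± 0.19 (adjusted p = 2.75e-07) with siYAP/TAZ#1 and 2.30 ± 0.19 (adjusted p = 1.21e-07) with siYAP/TAZ#2. The folds were 4.52 with siYAP/TAZ#1 and 4.91 with siYAP/TAZ#2. The level stayed low, at 0.275 ± 0.0513 TPM in siCo cells, and gene counts do not tell the full-length from the shorter p63 forms. TP73, at chr1:3652520-3736201, encodes p73, which shares many target genes with p53. It stood at 0.951, 0.732, 0.850 and 0.956 CPM with siYAP/TAZ#1, 1.20, 0.597, 0.967 and 1.35 CPM with siYAP/TAZ#2, and 0.459, 0.246, 0.263 and 0.285 CPM in siCo cells. In CPM no treated library overlapped siCo, with log2 changes of 1.46 ± 0.30 (adjusted p = 0.00123) with siYAP/TAZ#1 and 1.69 ± 0.30 (adjusted p = 0.000296) with siYAP/TAZ#2. In TPM, replicate 2 of siYAP/TAZ#2, at 0.0960, lay below replicate 1 of siCo, at 0.112. Neither rise was called by limma on unfiltered log2(TPM + 1). The TP73 rises rest on 7 to 15 estimated counts per siCo library, and TP73 shares exonic sequence on the opposite strand with TP73-AS1, which stood at 24.6 CPM in siCo cells and was not called in either comparison. Whether the libraries keep strand is not given in the sources used here, so reads of overlapping genes cannot be told apart. Besides XPC and CYFIP2 below, coding genes on the opposite strand share exonic sequence with MDM2 (the gene CPM), TP53I3 (FAM228B), PLK3 (TCTEX1D4), POLH (GTPBP2) and FBXO22 (NRG4). TIGAR shares such sequence with the coding gene AC008012.1 on the same strand, and SESN1, DRAM1 and PHLDA3 share it with non-coding genes only.

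The 3 inhibitors of p53 fell with siYAP/TAZ#2, where none of these falls held on unscaled TPM, MDM4 and PPM1D turning positive, and of the 3 only MDM4 fell with siYAP/TAZ#1. MDM2, at chr12:68808176-68850686, is the ligase that marks p53 for breakdown and is itself a p53 target. It stood at 111, 106, 109.6 and 121 CPM with siYAP/TAZ#1, 56.9, 81.3, 78.8 and 83.9 CPM with siYAP/TAZ#2, and 105, 106, 104 and 113 CPM in siCo cells. The siYAP/TAZ#2 libraries were all below the other 8, and the siYAP/TAZ#1 libraries overlapped those of siCo. MDM2 had a log2 change of 0.07 ± 0.09 (adjusted p = 0.639) with siYAP/TAZ#1 and -0.51 ± 0.10 (adjusted p = 0.000449) with siYAP/TAZ#2, and the direct difference, siYAP/TAZ#1 minus siYAP/TAZ#2, was 0.58 ± 0.10 (adjusted p = 0.000405). Without replicate 1 of siYAP/TAZ#2, the lowest library, the log2 change with siYAP/TAZ#2 was -0.39. On unscaled TPM that change was -0.03 (adjusted p = 0.951), and that of siYAP/TAZ#1 was 0.51 (adjusted p = 0.286). PPM1D, at chr17:60600183-60666280, is the phosphatase WIP1, which switches p53 signalling off. It stood at 24.3, 24.4, 24 and 24.5 CPM with siYAP/TAZ#1, 19.2, 18.8, 18.1 and 19.4 CPM with siYAP/TAZ#2, and 23.1, 22.1, 24.5 and 25.2 CPM in siCo cells. It had the same order as MDM2: the log2 change was 0.04 ± 0.06 (adjusted p = 0.709) with siYAP/TAZ#1 and -0.33 ± 0.06 (adjusted p = 0.000463) with siYAP/TAZ#2, positive at 0.21 on unscaled TPM, and the direct difference was 0.37 ± 0.06 (adjusted p = 0.000489). MDM4, the partner that blocks the activity of p53, stood at 53.1, 51.4, 50.9 and 55.5 CPM with siYAP/TAZ#1, 40.7, 56.9, 53.1 and 55.9 CPM with siYAP/TAZ#2, and 62.9, 58.3, 65.1 and 65.2 CPM in siCo cells. Every treated library lay below every siCo library. The log2 changes were -0.25 ± 0.09 (adjusted p = 0.031) with siYAP/TAZ#1 and -0.28 ± 0.09 (adjusted p = 0.0159) with siYAP/TAZ#2, which on unscaled TPM turned to 0.17 with siYAP/TAZ#1 and 0.25 with siYAP/TAZ#2. The call with siYAP/TAZ#1 was lost in 6 of 12 fits that left out a library each, and the change with siYAP/TAZ#2 was -0.18 without replicate 1 of siYAP/TAZ#2.

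Among the 7 genes of growth arrest and stress signalling, CCNG1 and BTG2 rose with both combinations and PLK2, PLK3 and GADD45A fell with both, PLK3 turning positive on unscaled TPM. CCNG1, at chr5:163437569-163446151, encodes cyclin G1, which recruits a phosphatase that acts on MDM2. It stood at 86.3, 79.2, 84.8 and 94.7 CPM with siYAP/TAZ#1, 42.6, 67.7, 68.6 and 67.4 CPM with siYAP/TAZ#2, and 33.5, 29.7, 32.1 and 36.9 CPM in siCo cells. No treated library overlapped siCo, and replicate 1 of siYAP/TAZ#2 lay nearest to it. CCNG1 was 2.61-fold higher with siYAP/TAZ#1, a log2 change of 1.38 ± 0.12 (adjusted p = 3.03e-07), and 1.86-fold higher with siYAP/TAZ#2, a log2 change of 0.90 ± 0.12 (adjusted p = 2.5e-05). It differed between the combinations by 0.49 ± 0.12 (adjusted p = 0.0105) on the log2 scale, and by 0.34 without replicate 1 of siYAP/TAZ#2, still called. The processed pseudogene CCNG1P1 could share its reads. BTG2, an adaptor of messenger RNA deadenylation that restrains proliferation, stood at 28.2, 29.4, 27.7 and 31.2 CPM with siYAP/TAZ#1, 37.2, 30.4, 32.9 and 37.2 CPM with siYAP/TAZ#2, and 21.6, 20.8, 22.7 and 24.9 CPM in siCo cells. All treated libraries were above siCo, with log2 changes of 0.37 ± 0.08 (adjusted p = 0.0017) with siYAP/TAZ#1 and 0.61 ± 0.08 (adjusted p = 1.53e-05) with siYAP/TAZ#2.

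PLK2, at chr5:58453982-58460260, a polo-like kinase induced by stress, fell the most of the 35 genes with either combination. It stood at 109, 112, 111 and 110.1 CPM with siYAP/TAZ#1, 117, 102, 108 and 111 CPM with siYAP/TAZ#2, and 197, 192, 217 and 199 CPM in siCo cells. The treated libraries lay within 102 to 117 CPM and no siCo library was under 192 CPM. PLK2 changed by -0.86 ± 0.06 (adjusted p = 9.55e-09) with siYAP/TAZ#1 and -0.88 ± 0.06 (adjusted p = 6.78e-09) with siYAP/TAZ#2 on the log2 scale, and the combinations differed by 0.01 ± 0.06 (adjusted p = 0.935). Its window above holds a p53 decamer and no TEAD core. PLK3, a related kinase, stood at 17.6, 19.5, 16.8 and 17.5 CPM with siYAP/TAZ#1, 20.4, 17.4, 15.8 and 19 CPM with siYAP/TAZ#2, and 23.4, 21.7, 22.2 and 21.8 CPM in siCo cells. No treated library overlapped siCo, and the log2 changes of -0.32 ± 0.08 (adjusted p = 0.00517) with siYAP/TAZ#1 and -0.30 ± 0.08 (adjusted p = 0.00756) with siYAP/TAZ#2 became 0.13 with siYAP/TAZ#1 and 0.22 with siYAP/TAZ#2 on unscaled TPM. GADD45A, a stress sensor tied to arrest and repair, stood at 5.97, 5.52, 4.72 and 4.64 CPM with siYAP/TAZ#1, 5.49, 4.47, 5.18 and 5.39 CPM with siYAP/TAZ#2, and 8.35, 7.05, 6.26 and 7.03 CPM in siCo cells. All treated libraries lay below siCo, with log2 changes of -0.46 ± 0.12 (adjusted p = 0.00506) with siYAP/TAZ#1 and -0.48 ± 0.12 (adjusted p = 0.0035) with siYAP/TAZ#2, neither of which passed the test with library size alone.

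ZMAT3, an RNA-binding zinc finger protein, and SESN1, a sestrin that restrains mTORC1, differed between the combinations. ZMAT3 stood at 17.9, 17, 17.3 and 17.5 CPM with siYAP/TAZ#1, 19.2, 25.1, 25.8 and 28.8 CPM with siYAP/TAZ#2, and 19.4, 19.5, 18.8 and 20.1 CPM in siCo cells. The siYAP/TAZ#1 libraries were all below siCo and 3 of the 4 siYAP/TAZ#2 libraries were well above it. Its log2 change was -0.16 ± 0.10 (adjusted p = 0.227) with siYAP/TAZ#1 and 0.35 ± 0.10 (adjusted p = 0.00854) with siYAP/TAZ#2, and the direct difference was -0.50 ± 0.10 (adjusted p = 0.00126). SESN1 stood at 7.38, 7.46, 7.37 and 6.97 CPM with siYAP/TAZ#1, 9.12, 8.68, 8.84 and 9.11 CPM with siYAP/TAZ#2, and 8.23, 8.04, 8.51 and 8.45 CPM in siCo cells. The siYAP/TAZ#1 libraries lay wholly below siCo and the siYAP/TAZ#2 libraries wholly above it, but neither change passed the test, at -0.19 ± 0.07 (adjusted p = 0.059) with siYAP/TAZ#1 and 0.11 ± 0.07 (adjusted p = 0.285) with siYAP/TAZ#2. The direct difference of -0.29 ± 0.07 (adjusted p = 0.0104) did.

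**Figure D3:**
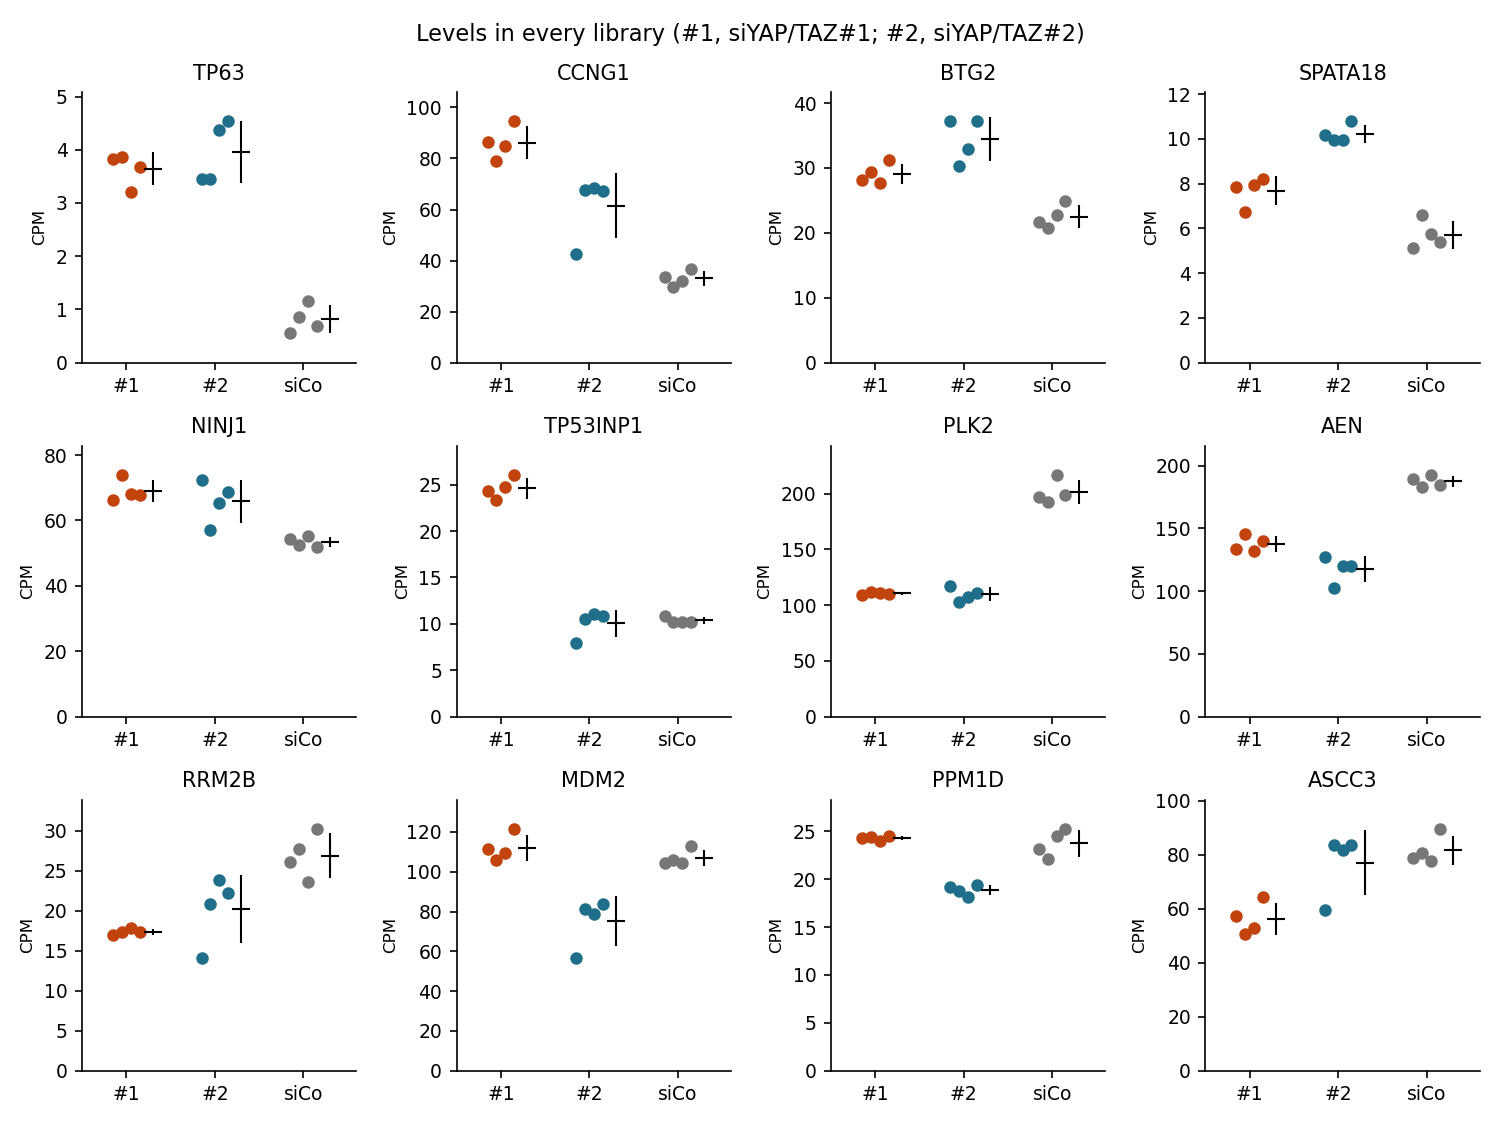
CPM after TMM scaling (vertical axis, from 0) of 12 of the genes in each library of siYAP/TAZ#1, siYAP/TAZ#2 and siCo, with the mean and SD of each group as a black cross and bar. In the TP63, CCNG1, BTG2, SPATA18 and NINJ1 panels both treated groups lie above siCo, in the PLK2 and AEN panels both lie below, and in the TP53INP1, MDM2 and PPM1D panels the treated groups differ from each other.

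Of the 5 genes of DNA repair and nucleotide supply, the damage recognition genes XPC and DDB2 rose with both combinations and RRM2B fell with both, turning positive on unscaled TPM with siYAP/TAZ#2. XPC, which finds lesions for nucleotide excision repair, stood at 50.8, 52.1, 51.7 and 57 CPM with siYAP/TAZ#1, 59.2, 55.4, 59.3 and 56.4 CPM with siYAP/TAZ#2, and 45.4, 47.3, 46.9 and 48.2 CPM in siCo cells. No treated library overlapped siCo, and the log2 changes were 0.17 ± 0.06 (adjusted p = 0.0233) with siYAP/TAZ#1 and 0.29 ± 0.06 (adjusted p = 0.000461) with siYAP/TAZ#2. XPC shares exonic sequence on the opposite strand with LSM3, for which the log2 change was -0.16 with siYAP/TAZ#1, not called, and -1.25 with siYAP/TAZ#2. DDB2, which binds ultraviolet damage, stood at 71.4, 74.8, 73 and 76.9 CPM with siYAP/TAZ#1, 74, 81.5, 87.3 and 84.8 CPM with siYAP/TAZ#2, and 68.7, 65.5, 62.7 and 65.1 CPM in siCo cells. All treated libraries lay above siCo, with log2 changes of 0.18 ± 0.06 (adjusted p = 0.0305) with siYAP/TAZ#1 and 0.32 ± 0.06 (adjusted p = 0.000402) with siYAP/TAZ#2. The call with siYAP/TAZ#1 was lost in 6 of 12 fits that left out a library each for DDB2, and in 3 for XPC.

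RRM2B, at chr8:102204502-102239118, is the p53-inducible small subunit of ribonucleotide reductase, which supplies nucleotides for repair. It stood at 16.9, 17.3, 17.8 and 17.4 CPM with siYAP/TAZ#1, 14.1, 20.8, 23.9 and 22.2 CPM with siYAP/TAZ#2, and 26.1, 27.7, 23.6 and 30.2 CPM in siCo cells. The siYAP/TAZ#1 libraries were all below siCo, and replicate 3 of siYAP/TAZ#2 overlapped it. Its log2 change was -0.63 ± 0.12 (adjusted p = 0.000739) with siYAP/TAZ#1 and -0.41 ± 0.12 (adjusted p = 0.0147) with siYAP/TAZ#2, which was -0.27 without replicate 1 of siYAP/TAZ#2, not called without replicate 4 of siCo, and positive at 0.34 on unscaled TPM. ASCC3, a helicase that acts in alkylation repair and on stalled ribosomes, fell with siYAP/TAZ#1 and did not pass the test with siYAP/TAZ#2. It stood at 57.3, 50.7, 52.8 and 64.2 CPM with siYAP/TAZ#1, 59.4, 83.5, 81.9 and 83.7 CPM with siYAP/TAZ#2, and 78.8, 80.7, 77.8 and 89.5 CPM in siCo cells. Replicate 1 of siYAP/TAZ#2 lay among the siYAP/TAZ#1 values and its other 3 libraries among those of siCo. The log2 change was -0.54 ± 0.10 (adjusted p = 0.000569) with siYAP/TAZ#1 and -0.08 ± 0.10 (adjusted p = 0.571) with siYAP/TAZ#2, with a direct difference of -0.46 ± 0.10 (adjusted p = 0.00506). POLH, a polymerase that copies past damage, ran over 23 to 27 CPM with siYAP/TAZ#1, 23.5 to 29.7 CPM with siYAP/TAZ#2, and 25.4 to 29.6 CPM in siCo cells, and passed no test.

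The 10 genes tied to cell death held the widest difference between the combinations, that of TP53INP1. TP53INP1, at chr8:94925972-94949411, is a stress protein that promotes cell death and autophagy. It stood at 24.3, 23.3, 24.8 and 26 CPM with siYAP/TAZ#1, 7.92, 10.5, 11 and 10.9 CPM with siYAP/TAZ#2, and 10.9, 10.2, 10.2 and 10.2 CPM in siCo cells. All siYAP/TAZ#1 libraries were above the other 8, and the siYAP/TAZ#2 libraries overlapped siCo. The log2 change was 1.25 ± 0.09 (adjusted p = 3.56e-08) with siYAP/TAZ#1 and -0.04 ± 0.09 (adjusted p = 0.785) with siYAP/TAZ#2. The direct difference was 1.29 ± 0.09 (adjusted p = 4.46e-08), or 2.44-fold. AEN, at chr15:88621296-88632282, a nuclease that aids apoptosis, fell with both combinations. It stood at 134, 146, 132 and 139.9 CPM with siYAP/TAZ#1, 127, 103, 120.1 and 120.0 CPM with siYAP/TAZ#2, and 189.7, 183, 193 and 185 CPM in siCo cells. No treated library overlapped siCo, and the 4 siYAP/TAZ#2 libraries lay below the 4 of siYAP/TAZ#1. AEN had a log2 change of -0.44 ± 0.06 (adjusted p = 4.74e-05) with siYAP/TAZ#1 and -0.67 ± 0.06 (adjusted p = 5.01e-07) with siYAP/TAZ#2. The direct difference of 0.23 ± 0.06 (adjusted p = 0.0224) lost its call in 3 of 12 fits that left out a library each. Its window above holds a p53 decamer, as does that of FDXR, which rose with siYAP/TAZ#2.

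CYFIP2 and NINJ1 rose with both combinations. CYFIP2, a part of the WAVE complex that drives actin assembly, stood at 82, 84.6, 75.9 and 83.6 CPM with siYAP/TAZ#1, 105, 103, 102 and 105 CPM with siYAP/TAZ#2, and 72.3, 72.7, 70.6 and 73.6 CPM in siCo cells. The 3 groups were fully apart, with log2 changes of 0.17 ± 0.05 (adjusted p = 0.0142) with siYAP/TAZ#1 and 0.52 ± 0.05 (adjusted p = 6.03e-07) with siYAP/TAZ#2 and a direct difference of -0.35 ± 0.05 (adjusted p = 0.000115). CYFIP2 shares exonic sequence on the opposite strand with ADAM19, which fell by 0.72 with siYAP/TAZ#1 and 0.77 with siYAP/TAZ#2 on the log2 scale. NINJ1, which ruptures the plasma membrane of dying cells, stood at 66.1, 73.9, 68.2 and 67.9 CPM with siYAP/TAZ#1, 72.3, 57.1, 65.3 and 68.7 CPM with siYAP/TAZ#2, and 54.4, 52.5, 55.2 and 51.8 CPM in siCo cells. All treated libraries lay above siCo, with log2 changes of 0.37 ± 0.07 (adjusted p = 0.000513) with siYAP/TAZ#1 and 0.30 ± 0.07 (adjusted p = 0.00242) with siYAP/TAZ#2.

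TP53I3 and EDA2R rose with siYAP/TAZ#2 and SUSD6 fell with it, with a positive sign on unscaled TPM for SUSD6, and none of these 3 passed the test with siYAP/TAZ#1. TP53I3, a quinone oxidoreductase tied to oxidative stress, stood at 73.9, 73.9, 68.3 and 67.7 CPM with siYAP/TAZ#1, 106, 83.1, 93.3 and 89.5 CPM with siYAP/TAZ#2, and 65.7, 68.7, 67.6 and 63.5 CPM in siCo cells. The siYAP/TAZ#2 libraries were all above the other 8, with a log2 change of 0.48 ± 0.07 (adjusted p = 3.69e-05) and a direct difference of -0.39 ± 0.07 (adjusted p = 0.000761). EDA2R, a death receptor relative that binds ectodysplasin A2, stood at 19.3, 20.6, 19.9 and 22.3 CPM with siYAP/TAZ#1, 21.7, 26.5, 28.3 and 24.8 CPM with siYAP/TAZ#2, and 20.8, 18.9, 16.2 and 20.3 CPM in siCo cells. The siYAP/TAZ#2 libraries were above siCo, with replicate 1 only just so, and with a log2 change of 0.41 ± 0.09 (adjusted p = 0.00241). The direct difference of -0.30 ± 0.09 (adjusted p = 0.0362) held in 6 of 12 fits that left out a library each. SUSD6, a sushi domain membrane protein, stood at 25.5, 27.4, 24.5 and 23.8 CPM with siYAP/TAZ#1, 18, 18.8, 17.8 and 20.01 CPM with siYAP/TAZ#2, and 24.1, 25.2, 23.3 and 22.1 CPM in siCo cells. The siYAP/TAZ#2 libraries were all below the other 8, with a log2 change of -0.34 ± 0.07 (adjusted p = 0.000934), which became 0.20 on unscaled TPM, and a direct difference of 0.44 ± 0.07 (adjusted p = 0.000272).

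PHLDA3, TRIAP1 and RPS27L passed the test in no comparison with all 12 libraries under TMM. PHLDA3, which competes with AKT for membrane lipids, ran over 149.8 to 174 CPM with siYAP/TAZ#1, 135 to 199 CPM with siYAP/TAZ#2, and 170.4 to 189 CPM in siCo cells. Its log2 change was -0.16 ± 0.10 (adjusted p = 0.237) with siYAP/TAZ#1 and -0.19 ± 0.10 (adjusted p = 0.151) with siYAP/TAZ#2. Without replicate 1 of siYAP/TAZ#2 it fell with both, with log2 changes of -0.17 (adjusted p = 0.0214) with siYAP/TAZ#1 and -0.33 (adjusted p = 0.0002) with siYAP/TAZ#2, and it fell with both under GC content offsets as well. TRIAP1, an inhibitor of apoptosis, ran over 11.2 to 13.9 CPM with siYAP/TAZ#1, 10.3 to 16 CPM with siYAP/TAZ#2, and 11.7 to 16.4 CPM in siCo cells. RPS27L, a ribosomal protein relative with a p53 decamer in its window, ran over 40.2 to 44.1 CPM with siYAP/TAZ#1, 35.3 to 54.2 CPM with siYAP/TAZ#2, and 41.9 to 48.2 CPM in siCo cells. Groups of all 3 overlapped.

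In the metabolic group of 5, SPATA18 rose with both combinations. SPATA18, also called Mieap, acts in mitochondrial quality control. It stood at 7.87, 6.73, 7.95 and 8.21 CPM with siYAP/TAZ#1, 10.2, 9.96, 9.94 and 10.8 CPM with siYAP/TAZ#2, and 5.14, 6.59, 5.74 and 5.41 CPM in siCo cells. The 3 groups did not overlap, in the order siYAP/TAZ#2, siYAP/TAZ#1, siCo from high to low. Its log2 change was 0.43 ± 0.10 (adjusted p = 0.00238) with siYAP/TAZ#1 and 0.84 ± 0.10 (adjusted p = 3.71e-06) with siYAP/TAZ#2, and the direct difference was -0.41 ± 0.09 (adjusted p = 0.00576). Its window above holds the TEAD core at 2 places and no decamer.

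FDXR, DRAM1 and CMBL rose with siYAP/TAZ#2 and did not pass the test with siYAP/TAZ#1. FDXR, a reductase that passes electrons to mitochondrial ferredoxins, stood at 52.6, 58.4, 50.1 and 54 CPM with siYAP/TAZ#1, 84.7, 56.5, 68.7 and 63.7 CPM with siYAP/TAZ#2, and 50.7, 50.9, 51.7 and 48.8 CPM in siCo cells. The siYAP/TAZ#2 libraries were above siCo, with replicate 1 far above the others. The log2 change with siYAP/TAZ#2 was 0.44 ± 0.10 (adjusted p = 0.00154), and 0.32 without that replicate, and the direct difference was -0.35 ± 0.09 (adjusted p = 0.0187). DRAM1, a lysosomal membrane protein of autophagy, stood at 32.9, 30.6, 29 and 31.9 CPM with siYAP/TAZ#1, 38.1, 40.3, 42.6 and 39.1 CPM with siYAP/TAZ#2, and 32.5, 32.7, 32.5 and 33.3 CPM in siCo cells. The siYAP/TAZ#2 libraries were all above the other 8, with a log2 change of 0.29 ± 0.06 (adjusted p = 0.000932) and a direct difference of -0.36 ± 0.06 (adjusted p = 0.000351). CMBL, a hydrolase, stood at 20.8, 22, 20.1 and 20.1 CPM with siYAP/TAZ#1, 24, 23.4, 24.6 and 22.9 CPM with siYAP/TAZ#2, and 18.3, 18.6, 18.3 and 19.3 CPM in siCo cells. Its 3 groups did not overlap, with a log2 change of 0.16 ± 0.06 (adjusted p = 0.0572) with siYAP/TAZ#1, 0.35 ± 0.06 (adjusted p = 0.000239) with siYAP/TAZ#2 and a direct difference of -0.19 ± 0.06 (adjusted p = 0.0412), which held in 6 of 12 fits that left out a library each. TIGAR, a phosphatase that slows glycolysis, fell with siYAP/TAZ#2 by a log2 change of -0.28 ± 0.08 (adjusted p = 0.0114), not called without replicate 4 of siCo and 0.32 on unscaled TPM. It ran over 31 to 33.7 CPM with siYAP/TAZ#1, 25.4 to 31.5 CPM with siYAP/TAZ#2, and 32.6 to 41 CPM in siCo cells.

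GDF15, a secreted stress cytokine, passed no test under TMM, and replicate 1 of siYAP/TAZ#2 was far above its group. It stood at 285, 307, 280.3 and 271 CPM with siYAP/TAZ#1, 385, 258, 273 and 259 CPM with siYAP/TAZ#2, and 264, 279.8, 281 and 255 CPM in siCo cells. Without that library the log2 change with siYAP/TAZ#2 was -0.03, against 0.12 ± 0.10 with it. With library size alone GDF15 rose with both, with log2 changes of 0.26 (adjusted p = 0.0158) with siYAP/TAZ#1 and 0.30 (adjusted p = 0.00569) with siYAP/TAZ#2, and on unscaled TPM it rose with siYAP/TAZ#2, by 0.60 (adjusted p = 0.0338, limma). FBXO22, a subunit of a ubiquitin ligase, ran over 37.4 to 44.8 CPM with siYAP/TAZ#1, 39.8 to 51.2 CPM with siYAP/TAZ#2, and 40.1 to 45 CPM in siCo cells, and ZNF79, a zinc finger gene, over 9.52 to 11.7 CPM with siYAP/TAZ#1, 10.6 to 11.5 CPM with siYAP/TAZ#2, and 9.56 to 11.2 CPM in siCo cells. Neither passed a test with all 12 libraries under TMM. With siYAP/TAZ#2, FBXO22 rose without replicate 1 of siYAP/TAZ#2, at a log2 change of 0.21 (adjusted p = 0.00969) against 0.14 ± 0.08 with it, under GC content offsets, and with library size alone (adjusted p = 0.022), where ZNF79 also rose (adjusted p = 0.046). Per length of transcript, GDF15 was the most abundant of the 35 in siCo cells, at 168 ± 24.6 TPM, with PLK2 next at 153 ± 21.5 TPM, a difference under their spread. Within each siCo library GDF15 stood above PLK2, at 177 against 167, 164 against 136, 135 against 134 and 194 against 176 TPM. PHLDA3 followed at 70.3 ± 8.52 TPM, AEN at 50.6 ± 8.51 TPM and RPS27L at 45.7 ± 11.3 TPM, the last pair again within their spread (SD, n = 4). TP53INP1 at 1.10 ± 0.210 TPM, TP63 and TP73, at 0.0683 ± 0.0399 TPM, were the lowest.

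The combinations were also compared directly, where siCo cancels. Of the 35 genes, 6 were higher and 10 lower with siYAP/TAZ#1 than with siYAP/TAZ#2. These 16 make 45.7%, against 15.1% of all genes (6.92% higher and 8.2% lower) and 25.5% of coding genes with at least 5 CPM in a group. The libraries of the combinations did not overlap for 37.1% of the 35, against 18.2% of all genes and 28.2% of such coding genes. Those higher with siYAP/TAZ#1 were TP53INP1, MDM2, CCNG1, SUSD6, PPM1D and AEN, and 3 of the 6 had fallen with siYAP/TAZ#2 without passing the test with siYAP/TAZ#1. Those lower were ZMAT3, ASCC3, SPATA18, TP53I3, DRAM1, CYFIP2, FDXR, EDA2R, SESN1 and CMBL. Of the metabolic group, 4 of 5 were lower with siYAP/TAZ#1 than with siYAP/TAZ#2. Without replicate 1 of siYAP/TAZ#2 the counts were 6 higher and 15 lower, which added DDB2, RRM2B, TRIAP1, RPS27L and FBXO22. On unscaled TPM no gene of the 35 passed this test in either direction with limma, and 1 was higher and 1 lower at an unadjusted p under 0.05.

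**Figure D4:**
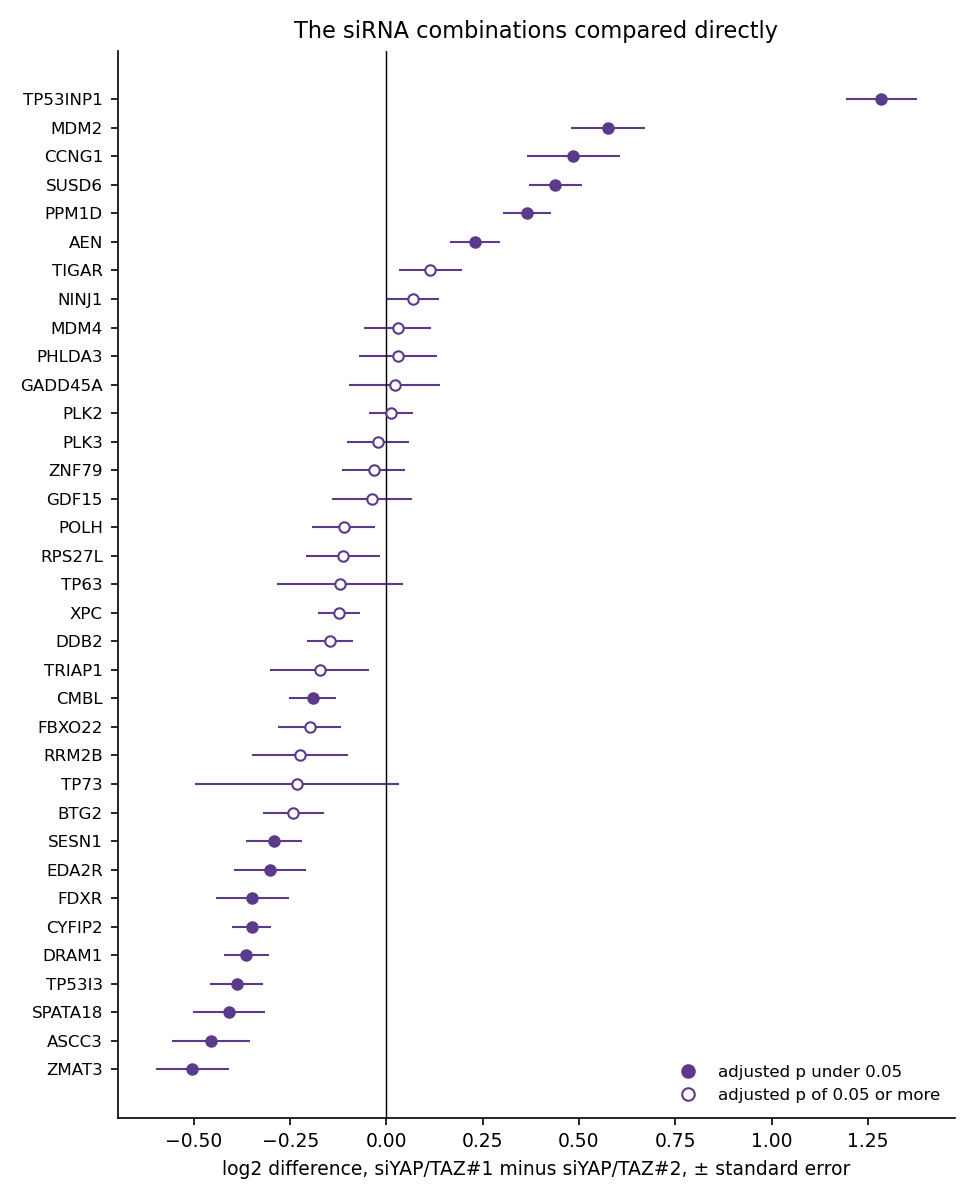
log2 difference, siYAP/TAZ#1 minus siYAP/TAZ#2 (horizontal axis), with its standard error for each of the 35 genes in order of size, filled where the adjusted p was under 0.05. TP53INP1 at 1.29 lies apart at the right end, followed by MDM2, CCNG1, SUSD6 and PPM1D, and ZMAT3 at -0.50 lies at the left end.

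The genes that rose and those that fell were described by siCo level, GC content, transcript length, role and promoter window. The siCo libraries were also the reference of the calls, so the siCo level is not independent of the sorting. The 9 that rose with both combinations had a median level of 10.9 TPM in siCo cells, a median GC content of 50.3% and a median transcript length of 3832 bases. The 6 that fell had medians of 10.7 TPM, 49.0% and 3946 bases. The 8 called with neither had medians of 14.1 TPM, 45.4% and 3075 bases. GC content and length are those of each gene's longest transcript in GENCODE v29, whichever form the cells expressed. By role, both family members rose with both combinations. Of the 7 arrest genes 2 rose and 3 fell with both, and of the 5 repair genes 2 rose and 1 fell. Among genes that fell with both, the decamer was in the windows of PLK2 and AEN and the TEAD core in that of PLK3. The other genes of that kind were MDM4, whose window held neither, and GADD45A and RRM2B, which had no entry. Among genes that rose with both, no searched window held the decamer and that of SPATA18 held the TEAD core.

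A longer list of other p53 targets went both ways as well. Of 86 such genes 81 were tested, and 19 rose and 21 fell with both combinations, or 23.5% and 25.9% of those tested. Over all genes 12.5% rose and 13.3% fell with both, and over coding genes with at least 5 CPM in a group 14.6% and 23.8%. Those that rose the most were MAST4, a microtubule-associated kinase, with log2 changes of 1.50 ± 0.07 with siYAP/TAZ#1 and 1.53 ± 0.07 with siYAP/TAZ#2, and ORAI3, a calcium channel subunit, with 1.47 ± 0.08 with siYAP/TAZ#1 and 1.52 ± 0.08 with siYAP/TAZ#2. TP53I11, with 0.86 ± 0.06 with siYAP/TAZ#1 and 1.18 ± 0.06 with siYAP/TAZ#2, ANXA4, a membrane-binding annexin, with 0.51 ± 0.06 with siYAP/TAZ#1 and 0.56 ± 0.06 with siYAP/TAZ#2, and FUCA1, a lysosomal fucosidase, with 0.46 ± 0.08 with siYAP/TAZ#1 and 0.51 ± 0.08 with siYAP/TAZ#2, followed. Several genes fell with both. APAF1, the core of the apoptosome, changed by -0.94 ± 0.09 with siYAP/TAZ#1 and -1.16 ± 0.09 with siYAP/TAZ#2, and the death receptor gene TNFRSF10A by -1.13 ± 0.06 with siYAP/TAZ#1 and -0.84 ± 0.06 with siYAP/TAZ#2. The anti-apoptotic gene BCL2L1 changed by -0.81 ± 0.05 with siYAP/TAZ#1 and -0.50 ± 0.05 with siYAP/TAZ#2. The cytokine gene LIF changed by -0.43 ± 0.05 with siYAP/TAZ#1 and -0.61 ± 0.05 with siYAP/TAZ#2. With library size alone the list held 32 higher and 9 lower.

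CDKN1A, CDIP1 and PANK1 were called in opposite directions with the 2 combinations, and they are named because of that. CDKN1A, the p21 inhibitor of cyclin-dependent kinases and the best known p53 target, was at 257 ± 17.2 CPM with siYAP/TAZ#1, 201 ± 10.2 CPM with siYAP/TAZ#2 and 225 ± 10.7 CPM in siCo cells (SD, n = 4). The log2 change was 0.19 ± 0.06 (adjusted p = 0.0245) with siYAP/TAZ#1 and -0.17 ± 0.06 (adjusted p = 0.0434) with siYAP/TAZ#2, which was positive at 0.02 with library size alone and positive on unscaled TPM, and the direct difference was 0.36 ± 0.06 (adjusted p = 0.00061). Of 25 settings tried, the call with siYAP/TAZ#1 held in 17 and that with siYAP/TAZ#2 in 9. CDIP1, a p53 target that promotes cell death, was at 9.14 ± 0.444 CPM with siYAP/TAZ#1, 18.9 ± 1.08 CPM with siYAP/TAZ#2 and 11.9 ± 0.885 CPM in siCo cells, with a direct difference of -1.05 ± 0.08 (adjusted p = 6.18e-08). Its fall with siYAP/TAZ#1 was not called with library size alone (-0.20, adjusted p = 0.0988) and turned positive on unscaled TPM. It was called in 20 of the 25 settings, and the rise with siYAP/TAZ#2 in 24. PANK1, which starts coenzyme A synthesis, was at 8.28 ± 0.174 CPM with siYAP/TAZ#1, 15.1 ± 0.538 CPM with siYAP/TAZ#2 and 12.2 ± 0.208 CPM in siCo cells, with a direct difference of -0.87 ± 0.07 (adjusted p = 9.47e-08). Its fall with siYAP/TAZ#1 was called in 22 of the 25 settings and its rise with siYAP/TAZ#2 in 21.

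A list of regulators of p53 held genes of both directions. Of 42 genes 41 were tested, with 5 higher and 15 lower with both combinations, or 12.2% and 36.6%, and 8 higher and 5 lower with library size alone. Over all genes 12.5% were higher and 13.3% lower with both, and over coding genes with at least 5 CPM in a group, 14.6% and 23.8%. The 5 that rose were TRIM24, with log2 changes of 0.31 ± 0.06 with siYAP/TAZ#1 and 0.47 ± 0.06 with siYAP/TAZ#2, and PPP1R13B, UBE4B, TP53BP1 and NUMB. TRIM24 and UBE4B are ubiquitin ligases that act on p53. Those that fell included PPP1R13L (iASPP, an inhibitor of p53), with -0.73 ± 0.11 with siYAP/TAZ#1 and -0.67 ± 0.11 with siYAP/TAZ#2, and the nucleolar protein gene NPM1, with -0.55 ± 0.07 with siYAP/TAZ#1 and -0.49 ± 0.07 with siYAP/TAZ#2. The methyltransferase gene KMT5A changed by -0.46 ± 0.06 with siYAP/TAZ#1 and -0.53 ± 0.06 with siYAP/TAZ#2. USP7, which removes ubiquitin from MDM2 and p53, changed by -0.52 ± 0.06 with siYAP/TAZ#1 and -0.41 ± 0.06 with siYAP/TAZ#2, and the checkpoint kinase gene CHEK1 by -0.58 ± 0.08 with siYAP/TAZ#1 and -0.36 ± 0.08 with siYAP/TAZ#2, and for both genes the sign with siYAP/TAZ#2 was positive on unscaled TPM.

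**Figure D5:**
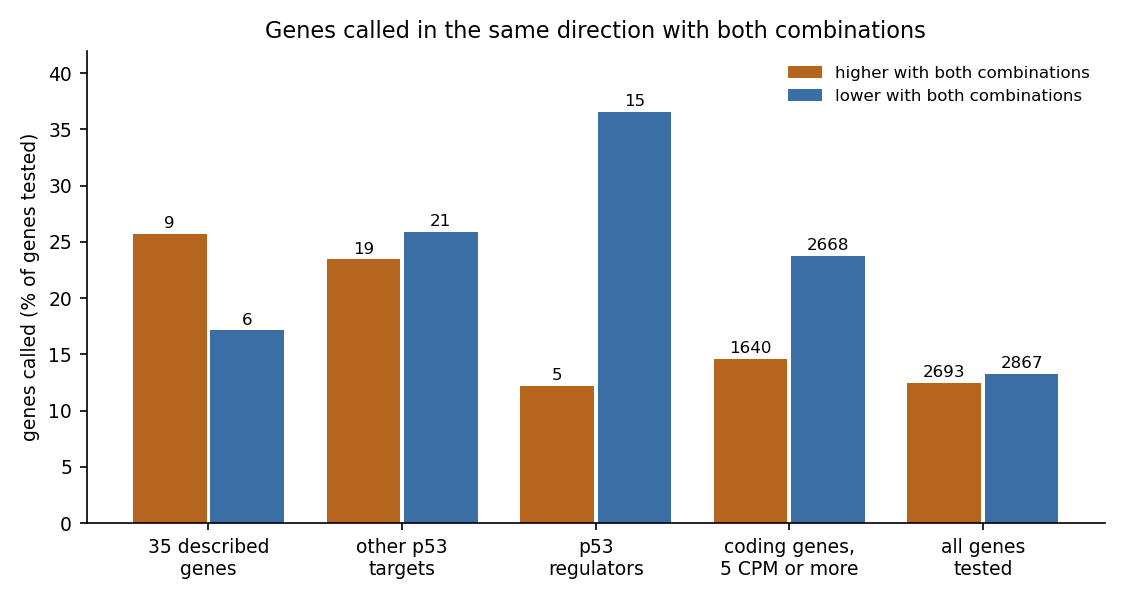
Share of tested genes called higher and lower with both combinations (vertical axis, percent, from 0) in the 35 genes, the other p53 targets, the p53 regulators, coding genes with at least 5 CPM in a group and all genes tested, with the number of genes above each bar. The 35 genes had 9 higher and 6 lower, the other targets 19 and 21, and the regulators 5 and 15.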

How the data were processed

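RNA from 12 libraries of A549 cells was sequenced, in groups of 4 read from the sample titles. The deposited count tables hold estimated counts per Ensembl gene, which the authors gave with no further scaling. The deposited TPM tables hold the authors' TPM, a length-scaled level, which sum to nearly the same total in each library. Trim Galore 0.6.4, kallisto 0.4.6 and GRCh38.p13 are named per the submitters' processing notes, while strandedness and the summing of transcripts to genes are not given in the sources used here. A non-coding gene, MIR3648-2, took 4.80% to 19.7% of the TPM of a library, and any such share lowers the TPM of all other genes in it.

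Estimated counts were rounded and tested in edgeR 4.0.16 (R 4.3.3) with filterByExpr, TMM scaling, group as the sole model term, all 12 libraries in the fit, and the quasi-likelihood test. P-values were adjusted by Benjamini and Hochberg's method across all 21581 genes tested, and a gene was called at an adjusted p under 0.05. The biological coefficient of variation was 0.105, and log2 CPM of libraries within a group had correlations of 0.979 to 0.991. Changes are log2 values ± standard error, levels are CPM after TMM or, between genes, TPM. Alternatives were DESeq2 1.42.0, other scalings and filters, limma 3.58.1 on log2(TPM + 1) or log2(TPM + 0.1) of genes with at least 0.5 TPM in 4 libraries or unfiltered, a replicate block, each comparison fitted on its own groups, and leaving out each library. Scaling TPM by TMM and offsets for GC content and transcript length were added after seeing the data. The edgeR step was tested on simulated data.

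The 35 genes, the lists of other p53 targets and regulators, and the markers were chosen with earlier results of these data known. All 35 are accounted for. Of the other lists, up to 5 genes per direction with at least 5 CPM in a group were named, by the smaller of their 2 changes, and the 3 called in opposite directions were named after their values were seen. Promoter windows are RefSeq's for GRCh38.p14, the first listed for each gene. The levels of the gene of p53 itself and of 1 gene covered by the naming rule for the other lists are not reported here.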

Additional observations from a re-analysis of the deposited data

Results flagged for a closer look

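A library far from the other 3 of its group was found in 6 of 105 groups of 4 values (35 genes in 3 groups), and chance alone flags about 1 in 20. Replicate 1 of siYAP/TAZ#2 was the lowest of its group for CCNG1, at 42.6 CPM, and for ASCC3, at 59.4 CPM, and the highest for GDF15, at 385 CPM. Replicate 3 of siYAP/TAZ#1 was the highest for RPS27L, at 44.1 CPM. In siCo, replicate 4 was the highest for MDM2, at 113 CPM, and replicate 1 the highest for TP53INP1, at 10.9 CPM. The same library, replicate 1 of siYAP/TAZ#2, thus made 3 of the 6.

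For 16 genes the effect differed between the combinations by the direct test in edgeR. On the log2 scale, siYAP/TAZ#1 minus siYAP/TAZ#2, the difference was 1.29 for TP53INP1, 0.575 for MDM2, 0.486 for CCNG1, 0.438 for SUSD6, 0.366 for PPM1D and 0.23 for AEN. It was -0.504 for ZMAT3, -0.455 for ASCC3, -0.409 for SPATA18, -0.389 for TP53I3 and -0.363 for DRAM1. It was -0.35 for CYFIP2, -0.348 for FDXR, -0.302 for EDA2R, -0.292 for SESN1 and -0.192 for CMBL.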

How the results depend on the processing

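Of the 70 changes of the 35 genes against siCo, DESeq2, its size factors in edgeR, no filter and transcript length offsets altered no call. With GC content offsets 5 more passed the test. With library size alone, 16 genes were higher and 4 lower with siYAP/TAZ#1, 3 were lower with siYAP/TAZ#2 and 2 were lower with both; the other targets then had 32 higher and 9 lower with both, and the regulators 8 and 5. On log2(TPM + 1), 4 were higher and 0 lower with siYAP/TAZ#1, 0 lower with siYAP/TAZ#2, 0 and 0 in the direct comparison, and 3 and 0 with both. With a pseudocount of 0.1 these were 5 and 0, 0, 0 and 0, and 4 and 0. Unfiltered, they were 3 and 0, 8 higher and 0 lower with siYAP/TAZ#2, 0 and 0, and 2 and 0. The other targets had 5, 6 and 4 higher and 0 lower with both in these 3 settings, and the regulators 0 and 0. TPM scaled by TMM gave 6 and 4 with siYAP/TAZ#1, 4 lower with siYAP/TAZ#2, 3 and 2 directly and 5 and 3 with both, 12 other targets higher, and 3 and 8 regulators. Scaling and the weight of each gene differ between these settings, and the cause of each shift was not tested.

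On TPM with a pseudocount of 1, filtered or not, MDM4 turned to 0.172 with siYAP/TAZ#1 and 0.253 with siYAP/TAZ#2, PLK3 to 0.128 and 0.219, and, with siYAP/TAZ#2, PPM1D to 0.214, RRM2B to 0.337, SUSD6 to 0.199 and TIGAR to 0.319. With a pseudocount of 0.1 these were 0.184, 0.266, 0.140, 0.236, 0.247, 0.391, 0.245 and 0.402. TIGAR was 0.000316 on TPM scaled by TMM.

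Leaving out each library gave 8 to 11 higher and 6 to 11 lower with siYAP/TAZ#1, 15 to 16 and 8 to 11 with siYAP/TAZ#2, 5 to 6 and 7 to 15 directly, and 7 to 10 and 4 to 8 with both. The other targets ranged over 13 to 23 and 17 to 22, and the regulators over 3 to 5, with 3 without siCo replicate 1 or siYAP/TAZ#1 replicate 4, and 13 to 17. Replicate numbers were not used to pair the samples in the main fit. Of 12 same-numbered pairs 4 correlated above 0.1, and 5 of 12 libraries correlated best with their own number. Libraries of replicate 4 correlated at 0.19 (siCo with siYAP/TAZ#1), 0.15 (siCo with siYAP/TAZ#2) and 0.21 (siYAP/TAZ#1 with siYAP/TAZ#2). The limma fits on TPM had no replicate term, and the part of a shared replicate effect in them was not tested. The replicate block gave 10 and 7, 15 and 10, and 6 and 10. Depth limited TP73, with 7 to 15 counts per siCo library.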
